A study of Mus musculus with 8 samples.

Results

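Transcripts of 9 transcription factors that direct the development of myeloid blood cells were followed in the buffy coat of mice: Cebpa, Cebpb, Cebpd and Cebpe of the C/EBP family, Spi1 (which encodes PU.1), Irf8, Gfi1, Klf4 and Runx1. The genes were listed by name, and all 9 were found among the 35944 genes of the deposited table. Of these, 8 held enough counts to be tested, among 10361 genes tested in all. Cebpe did not. The buffy coat is the layer of white cells and platelets that forms between plasma and red cells when blood is centrifuged. The mice had been exposed for 24 weeks to PM2.5, airborne particles of small diameter, or to PBS, the saline used as control. The labels name no strain, sex, genotype, age or route of exposure. Each group held 4 libraries, called here by their label numbers, 9, 17, 18 and 21 for PM2.5 and 4, 10, 12 and 16 for PBS, and values per library are given in that order. The labels do not say that every library is a separate animal, so p-values measure only the spread between these samples.

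Myeloid development runs through a small set of factors that bind one another's genes. PU.1 opens the myeloid program, C/EBPα drives progenitors toward granulocytes and monocytes, and C/EBPε completes the late granule stage of neutrophils. C/EBPβ and C/EBPδ are induced by cytokines and acute inflammation, IRF8 and KLF4 direct monocytes and dendritic cells, GFI1 is a repressor that favours neutrophils, and RUNX1 acts from the blood stem cell onward and stays on in lymphocytes and platelet precursors.

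Libraries held 72081019 to 89032794 expected counts. Haemoglobin took 82.3% to 88.6% of them, which left 9637639 to 12752766 counts for all other genes. Levels are given as CPM (counts scaled by the size of the library after TMM, a scaling that sets the bulk of genes level between libraries), and differences as log2 fold changes of PM2.5 over PBS from edgeR's quasi-likelihood test, with Benjamini-Hochberg adjusted p over all genes tested and a threshold of 0.05. PM2.5 replicates 17 and 18 stood apart by neuronal transcripts. Camk2a, a kinase of neurons, was at 1.43 and 1.79 CPM there and at no more than 0.0373 CPM in any other library. Values that rest on them are therefore also given without those 2 libraries. Markers of neutrophils, monocytes, B cells, T cells, natural killer cells and platelets were detected in all libraries. The progenitor granule genes Mpo, Elane and Ctsg had 0 counts in all 8, which allows at most 3 counts per library, or 0.0273 to 0.0555 CPM. Other progenitor markers were found, with Kit at 3 to 14 and Cd34 at 4 to 57 counts in every library. Prtn3 had 4 counts in PM2.5 replicate 21 and 11, 1 and 2 in PBS replicates 4, 10 and 12. Of these 6 markers Cd34 alone was tested, and it did not pass (-0.45, adjusted p = 0.703).

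Cebpd was the single member past the threshold, higher with PM2.5, and no member was called lower. This is 1 of 8 tested, where 1.6% of all genes tested were called, 0.463% higher and 1.14% lower. Cebpd lay above the PBS range in every PM2.5 library, which 3.01% of all genes did. Runx1 lay below it in every PM2.5 library, which 6.64% of all genes did, and its change did not pass. The other 6 overlapped between groups. Both separations hold on the TMM scale, whose factors were 0.638 to 1.105 with PM2.5 and 0.832 to 1.518 with PBS. On FPKM, the authors' scale by length and whole library, Cebpd and Runx1 each overlapped between groups. Across the 8 tested members 4 log2 fold changes were above 0 and 4 below (45.7% of all genes were below), with a median of 0.05 beside 0.04 over all genes. In bulk blood, fewer cells of a type and less RNA per cell cannot be told apart.

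**Figure D1:**
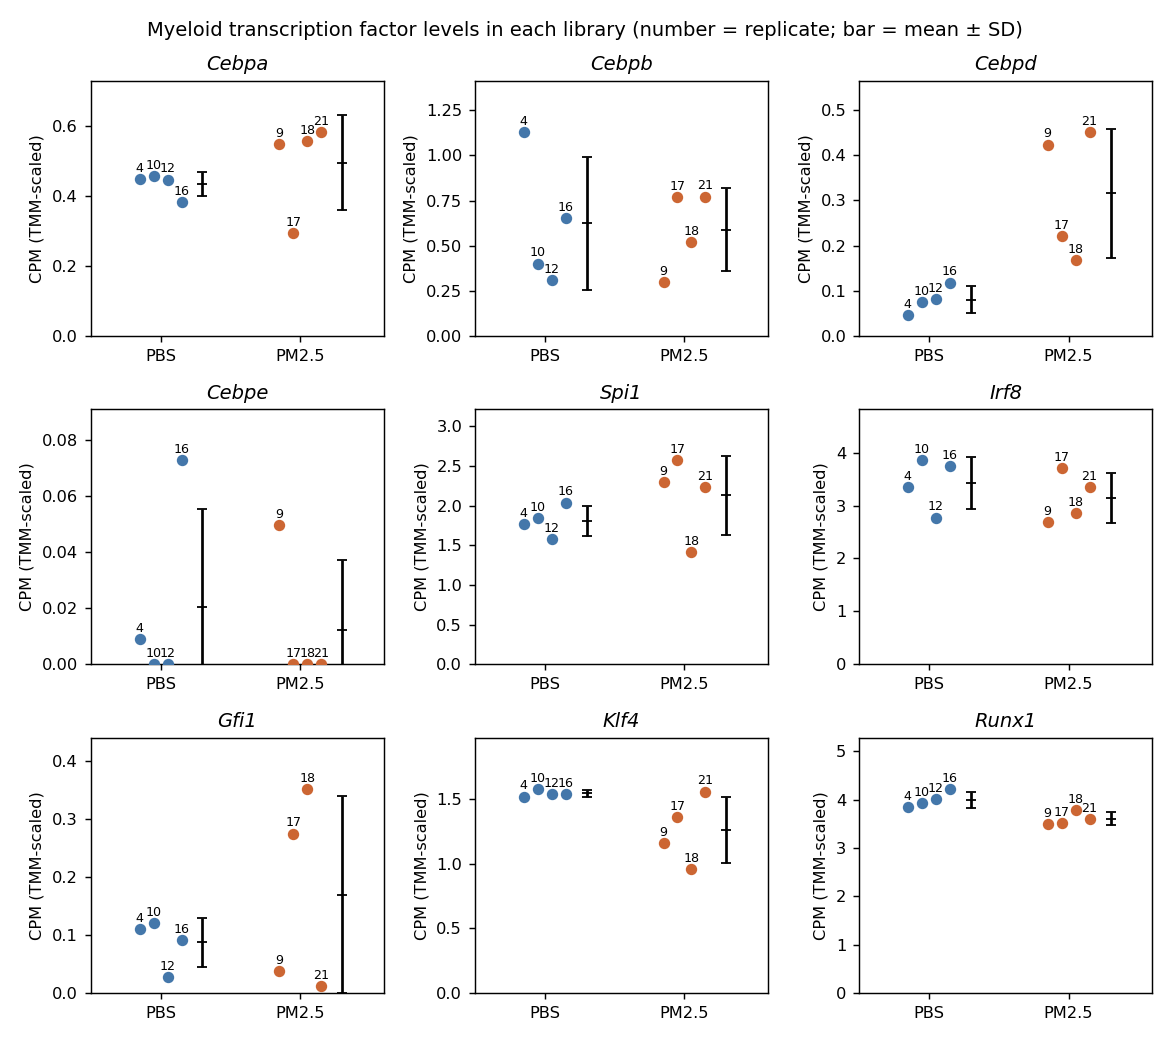
CPM (TMM-scaled) of each of the 9 factors, with 1 panel per gene and a separate axis from 0 for each; points are libraries with their replicate numbers, and bars are mean ± SD of 4 libraries (bars that would pass below 0 end at the axis). Cebpd is the panel in which PM2.5 lies above PBS (0.167 to 0.451 against 0.0457 to 0.118 CPM), and Runx1 the one in which it lies below (3.49 to 3.79 against 3.84 to 4.22 CPM).

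Cebpd (ENSMUSG00000071637, chr16:15887286-15891031, + strand, GRCm38) encodes C/EBPδ, which is low in resting cells and induced by inflammatory cytokines through STAT3. It was counted 34, 12, 9 and 38 times in the PM2.5 libraries and 5, 8, 6 and 13 times in the PBS libraries. These counts are 0.423, 0.220, 0.167 and 0.451 CPM with PM2.5 and 0.0457, 0.0746, 0.0810 and 0.118 CPM with PBS. Replicates 9 and 21 were the highest, and the lowest PM2.5 library, replicate 18, was above the highest PBS library, replicate 16. The means were 0.315 ± 0.143 and 0.0799 ± 0.0298 CPM (SD, n = 4 each). The log2 fold change was 1.99 (SE 0.454, 95% interval 0.88 to 3.10), a 3.98-fold difference, with an adjusted p of 0.0357.

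The call rested on 125 counts over 8 libraries. It was kept without PM2.5 replicate 18 or PBS replicate 16 and lost when any 1 of 6 others was left out, namely 9, 17 or 21 of the PM2.5 group and 4, 10 or 12 of the PBS group (adjusted p = 0.058 to 0.15), while the log2 fold change stayed between 1.75 and 2.25. Without PM2.5 replicates 17 and 18 it was 2.44 (adjusted p = 0.0693), and without 9 and 21, which removes as many libraries, 1.23 (adjusted p = 0.293). DESeq2 gave 2.00 (SE 0.537) with no adjusted p under its own filter, and 0.0198 with that filter off. Scaled by library totals, where the median gene sits at -0.52, Cebpd was at 1.55 (adjusted p = 0.0914).

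Nearly all of the signal came from 1 transcript. The transcript of 3746 bases held 94.1% of the counts, and alone it gave a log2 fold change of 1.89 (adjusted p = 0.0434). The other annotated transcript, of 430 bases, held 5.41 counts in PM2.5 replicate 9, 2.00 in replicate 21 and 0 elsewhere. On the authors' FPKM scale, which divides by length and by the whole library, the sums over both transcripts were 0.68, 0.04, 0.03 and 0.29 with PM2.5 and 0.02, 0.03, 0.02 and 0.04 with PBS, and the groups overlapped. Of the 0.68 FPKM in replicate 9, the short transcript gave 0.57. The last 1808 bases of the annotated gene overlap Spidr, a DNA repair gene on the opposite strand, and RefSeq's shorter Cebpd of 2260 bases shares 322 with it. Whether strand was used in counting is not given in the sources used here. Spidr itself averaged 0.694 ± 0.110 CPM in the PM2.5 libraries and 0.611 ± 0.0603 CPM in the PBS libraries (SD, n = 4 each), and its log2 fold change was 0.19 (SE 0.221, adjusted p = 0.671).

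Some neutrophil and monocyte markers were higher too, and their part in the Cebpd difference was not tested. Of 11 neutrophil markers 10 were tested, of which S100a8, Mmp9 and Cxcr2 were higher, none was lower and 7 did not pass, among them Il1r2 at -0.78. Their summed level was 32.5 to 60.8 CPM with PM2.5 and 18.9 to 39.9 CPM with PBS. Of 10 monocyte markers Ccr2, Vcan and Ms4a6c were higher, none was lower and 7 did not pass, with sums of 63.7 to 111 and 49.2 to 84.7 CPM. Both sums overlapped between groups. Vcan (adjusted p = 0.0625) and Ms4a6c (0.0769) failed without PBS replicate 10, and Vcan went from 2.23 to 1.47 without PM2.5 replicate 21. Ms4a6c also failed without PM2.5 replicates 17 and 18 (adjusted p = 0.0617), without 9 and 21 (0.0542) and under library totals (0.49, adjusted p = 0.355). None of 7 T cell and 7 platelet markers passed, and of 7 natural killer cell markers 1 was higher, Ncr1, at 1.40 (adjusted p = 0.0481), which passed in 1 of 8 fits without single libraries, that without PM2.5 replicate 9. Under library totals Ncr1 was at 0.72 (adjusted p = 0.277), and with PM2.5 replicates 17 and 18 both left out it was at 0.88 (adjusted p = 0.429). As a share of the monocyte sum, Cebpd was 0.542%, 0.345%, 0.232% and 0.406% with PM2.5 and 0.054%, 0.152%, 0.143% and 0.148% with PBS. Those groups did not overlap, which 0.27% of all genes matched in that direction. The sum averaged 81.3 CPM with PM2.5 and 67.7 CPM with PBS. It is carried by F13a1, a clotting factor subunit, and Fn1, fibronectin. They averaged 33.6 and 15.6 CPM with PM2.5 and 22.4 and 23.2 CPM with PBS, and neither passed (0.58 and -0.57). The share is thus mostly one over these 2 genes, and whether Cebpd stands apart from monocytes was not tested. Ccr2 was also taken alone, which was not planned. The Cebpd level was 3.04% to 8.63% of it with PM2.5 and 2.37% to 9.37% with PBS, and the groups overlapped. The log2 fold change of Ccr2 is as large as that of Cebpd, so this overlap follows from the choice and nothing is concluded from it. As a share of the neutrophil sum, Cebpd was 0.803%, 0.362%, 0.478% and 1.39% with PM2.5 and 0.167%, 0.346%, 0.429% and 0.296% with PBS. Here PM2.5 replicate 17 fell below PBS replicate 12, so the groups overlapped. No other member lay wholly above or below PBS on these 2 shares, beside 5.88% of all genes on the monocyte share and 13.6% on the neutrophil share. Over the B cell sum, Cebpd, Spi1 and Irf8 lay wholly above PBS, as did 18.7% of all genes. Over the natural killer cell sum, Irf8, Klf4 and Runx1 lay wholly below, as did 21.2% of all genes, and Cebpd overlapped.

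**Figure D2:**
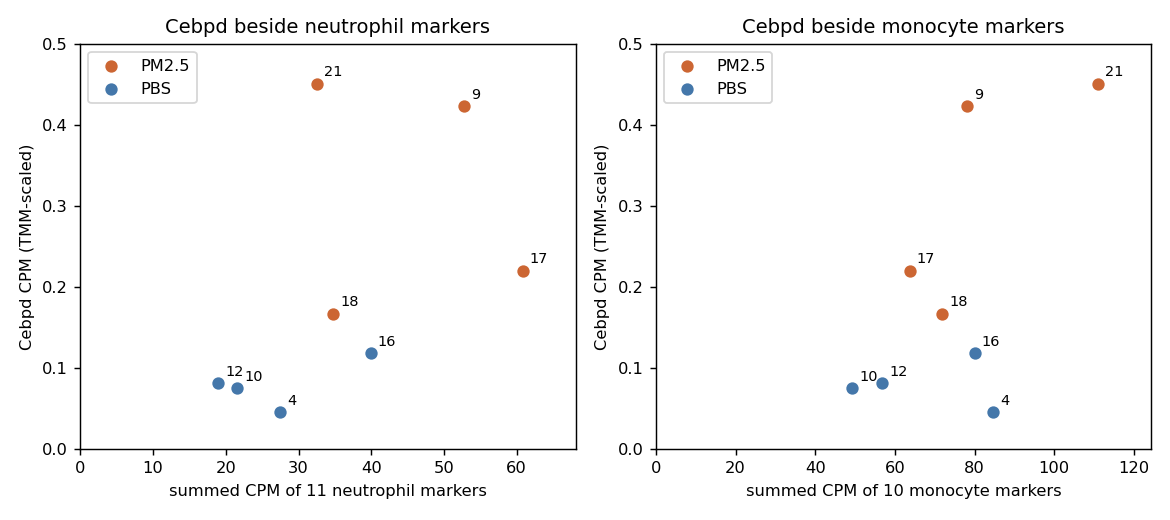
Cebpd level (CPM, TMM-scaled, vertical axis) against the summed CPM of the neutrophil markers and of the monocyte markers (horizontal axes), 1 point per library with its replicate number. PM2.5 replicates 9 and 21 carry the highest Cebpd values, 0.423 and 0.451 CPM, and differ in their marker sums, 52.7 and 32.5 CPM for neutrophils and 78.1 and 111 CPM for monocytes.

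The other C/EBP genes did not pass. Cebpa (ENSMUSG00000034957, chr7:35119293-35121928, + strand) encodes C/EBPα, which commits progenitors to the granulocyte and monocyte line. It was at 0.548, 0.293, 0.555 and 0.582 CPM with PM2.5 and 0.448, 0.457, 0.446 and 0.382 CPM with PBS. Replicate 17 was the lowest of all 8 libraries, while the other PM2.5 libraries were above all PBS libraries. Its log2 fold change was 0.20 (SE 0.265, 95% interval -0.44 to 0.85, adjusted p = 0.709), and it turned to -0.33 under library totals. Without PM2.5 replicates 17 and 18 it was 0.39 (adjusted p = 0.652), and without 9 and 21 it was -0.05 (adjusted p = 0.961).

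Cebpb (ENSMUSG00000056501, chr2:167688915-167690418, + strand) encodes C/EBPβ, the factor of emergency granulopoiesis and macrophage activation. It was at 0.299, 0.770, 0.518 and 0.772 CPM with PM2.5 and 1.13, 0.401, 0.311 and 0.654 CPM with PBS. Both groups were widely spread, and the highest value and one of the lowest were in PBS libraries. Its log2 fold change was -0.11 (SE 0.368, 95% interval -1.01 to 0.79, adjusted p = 0.898), and it was 0.31 without PBS replicate 4. Tmem189, on the opposite strand, overlaps 908 bases of Cebpb and was at 0.18 (adjusted p = 0.556).

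Cebpe (ENSMUSG00000052435, chr14:54710360-54712174, - strand) encodes C/EBPε, made in the late neutrophil precursors of marrow. It had 4 counts in PM2.5 replicate 9, 1 in PBS replicate 4, 8 in PBS replicate 16 and 0 in the other 5 libraries, too few for a test or a fold. Cebpg and Ddit3 encode family members that dimerize with the others and lack their usual activating function. They were at -0.07 (SE 0.171, adjusted p = 0.851) and -0.19 (SE 0.356, adjusted p = 0.804), with both groups overlapping.

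The promoter of Cebpa is shown because the factor is known to act on its own gene. The 250 bases before its start, from RefSeq on GRCm38.p6, are chr7:35119043-35119292 on the + strand. Capitals mark a core C/EBP motif, TTGCG, and a TATA box, TATAAA. Motifs were searched on both strands. In the 32851 promoter windows of the table, TTGCG was found in 14.5% and TATAAA in 12.4% of the 250 bases before the start.
Cebpa promoter: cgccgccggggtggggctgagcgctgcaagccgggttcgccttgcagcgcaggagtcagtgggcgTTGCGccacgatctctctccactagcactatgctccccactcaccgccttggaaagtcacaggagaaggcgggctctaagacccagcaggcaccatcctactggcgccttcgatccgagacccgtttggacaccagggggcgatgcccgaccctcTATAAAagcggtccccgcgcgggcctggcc

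Spi1 (ENSMUSG00000002111, chr2:91082390-91115756, + strand) encodes PU.1, an ETS-family factor needed by all myeloid cells and by B cells. It was at 2.30, 2.57, 1.42 and 2.23 CPM with PM2.5 and 1.77, 1.84, 1.58 and 2.04 CPM with PBS. Replicates 9, 17 and 21 were above every PBS library, and replicate 18 was the lowest of all. On the log2 scale the difference was 0.24 (SE 0.183, 95% interval -0.21 to 0.69, adjusted p = 0.491), and it was -0.32 under library totals and -0.10 on log2(FPKM + 1), so its direction depends on the scaling. Without PM2.5 replicates 17 and 18 it was 0.33 (adjusted p = 0.558), and without 9 and 21 it was 0.12 (adjusted p = 0.832). The transcript of 2034 bases held 81.5% of the counts, and one of 544 bases with a start further upstream held 16.9%.

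Irf8 (ENSMUSG00000041515, chr8:120736358-120756694, + strand) encodes an interferon-regulated factor that directs monocytes and dendritic cells and restrains neutrophil output, and B cells express it too. It was at 2.68, 3.70, 2.85 and 3.35 CPM with PM2.5 and 3.35, 3.85, 2.77 and 3.74 CPM with PBS. The groups covered nearly the same range. Its log2 fold change was -0.13 (SE 0.162, 95% interval -0.52 to 0.27, adjusted p = 0.699). Of 8 B cell markers tested, Ebf1, Blk and Bank1 were lower (log2 fold changes -1.12, -0.81 and -0.79), none was higher and 5 did not pass. The sum of all 8 was 32.7 to 42.4 CPM with PM2.5 and 39.7 to 64.2 with PBS. Without single libraries Ebf1 stayed past the threshold in 8 of 8 fits, Blk in 1 (without PBS replicate 12) and Bank1 in the same 1, and with PM2.5 replicates 17 and 18 both left out none of the 3 passed (adjusted p = 0.13 to 0.371), and without 9 and 21 Blk did not (0.132). The part of these cells in the Irf8 level was not tested. Gm20388, a read-through annotation on the same strand, spans all of Irf8 and was at 0.32 (adjusted p = 0.403), so counts shared between them are uncertain.

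The upstream Irf8 promoter is shown because cytokine signals act on this gene and cytokine receptors were measured in the same libraries. The window is chr8:120736108-120736357 on the + strand (RefSeq, GRCm38.p6). Capitals mark 2 matches to TTCNNNGAA, the STAT motif, which reads the same on both strands, and a TATAAA. The STAT letters were found in 7.0% of all windows.
Irf8 upstream promoter: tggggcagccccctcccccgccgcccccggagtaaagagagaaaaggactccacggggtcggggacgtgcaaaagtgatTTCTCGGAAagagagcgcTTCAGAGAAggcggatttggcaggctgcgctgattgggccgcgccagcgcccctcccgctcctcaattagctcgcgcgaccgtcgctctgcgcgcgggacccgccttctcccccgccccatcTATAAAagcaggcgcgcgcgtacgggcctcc

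Klf4 (ENSMUSG00000003032, chr4:55527143-55532466, - strand) encodes a zinc finger factor needed for the inflammatory type of monocyte. It was at 1.16, 1.36, 0.962 and 1.56 CPM with PM2.5 and 1.52, 1.58, 1.54 and 1.54 CPM with PBS. The PBS libraries were nearly level, and 3 PM2.5 libraries were below them while replicate 21 lay within their range. Its log2 fold change was -0.29 (SE 0.18, 95% interval -0.73 to 0.15, adjusted p = 0.397). Of 14 monocyte genes known to be under PU.1, IRF8 or KLF4 control, 13 were tested, 1 was higher (Ccr2) and none was lower. Over all genes tested, 0.463% were called higher. Ccr2 is also one of the monocyte markers above, so this repeats that call. The median of the 13 was 0.13 beside 0.04 over all genes. Ccr2, the receptor by which monocytes leave marrow, was at 1.99 (SE 0.274, adjusted p = 0.0029) and past the threshold in 8 of 8 fits without single libraries. None of 4 tested dendritic cell markers of 6 passed, and their sum was 0.550 to 1.17 CPM with PM2.5 and 0.621 to 1.10 with PBS.

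Gfi1 (ENSMUSG00000029275, chr5:107716657-107726036, - strand) encodes a repressor that opposes PU.1 and IRF8 in favour of neutrophils. It was counted 3, 15, 19 and 1 times with PM2.5 and 12, 13, 2 and 10 times with PBS, or 0.0373, 0.275, 0.352 and 0.0119 CPM against 0.110, 0.121, 0.0270 and 0.0909 CPM. The high values were in replicates 17 and 18, the 2 libraries with neuronal transcripts, and the other PM2.5 libraries were within or below the PBS range. On the log2 scale the difference was 0.79 (SE 0.723, 95% interval -0.98 to 2.56, adjusted p = 0.574), and without replicates 17 and 18 it was -1.80 (adjusted p = 0.539). The part of the neuronal transcripts in this was not tested.

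Runx1 (ENSMUSG00000022952, chr16:92601466-92826149, - strand) encodes the DNA-binding partner of CBFβ, required to form blood stem cells and active in platelets and lymphocytes. It was at 3.49, 3.52, 3.79 and 3.60 CPM with PM2.5 and 3.84, 3.92, 4.01 and 4.22 CPM with PBS. The ranges did not overlap, by a margin of under 0.1 CPM between PM2.5 replicate 18 and PBS replicate 4. On FPKM they did, with PM2.5 replicate 21 at 1.09 and PBS replicate 12 at 1.07. The means were 3.60 ± 0.138 and 4.0 ± 0.166 CPM (SD, n = 4 each). The log2 fold change was -0.15 (SE 0.138, 95% interval -0.49 to 0.19, adjusted p = 0.572), a difference about as large as its error. Under library totals, where the median gene sits at -0.52, Irf8, Klf4 and Runx1 were at -0.74, -0.84 and -0.72, and none passed (adjusted p = 0.138 to 0.149).

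Runx1 has 2 promoters far apart, and they are shown because the table counts transcripts from each. The upstream one makes the longer protein isoform of definitive blood cells. Its window is chr16:92826150-92826324 on the - strand (RefSeq, GRCm38.p6, trimmed to the 175 bases before the first annotated exon), and capitals mark the ETS letters AGGAAG, found in 29.5% of all 250-base windows. The downstream window is chr16:92697330-92697579 on the - strand, and capitals mark CCAAT, on either strand, found in 33.8%. A further stretch of 20 bases, chr16:92826030-92826049 on the - strand, lies at bases 26 to 45 after the RefSeq upstream start and holds 2 copies of ACCACA, the reverse complement of the RUNX letters TGTGGT. Those letters were found in 16.8% of all windows of 300 bases. These matches are letters in a window and were not tested as sites.
Runx1 upstream promoter: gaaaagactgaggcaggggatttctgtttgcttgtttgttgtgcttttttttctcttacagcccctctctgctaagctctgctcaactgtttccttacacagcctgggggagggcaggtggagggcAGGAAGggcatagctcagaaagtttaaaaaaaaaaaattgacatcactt
Runx1 downstream promoter: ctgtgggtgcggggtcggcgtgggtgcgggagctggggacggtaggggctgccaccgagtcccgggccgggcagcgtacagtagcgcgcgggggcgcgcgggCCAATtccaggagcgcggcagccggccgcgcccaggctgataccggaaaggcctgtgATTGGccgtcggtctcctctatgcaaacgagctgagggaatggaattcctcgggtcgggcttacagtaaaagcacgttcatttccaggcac
Runx1 upstream start, RUNX letters: acaACCACAgaACCACAagt

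Transcripts from the upstream start held 68.6% of all Runx1 counts. Their share was 69.8%, 71.7%, 73.1% and 51.4% with PM2.5 and 70.0%, 73.5%, 75.7% and 65.4% with PBS. PM2.5 replicate 21 was the lowest and the groups overlapped (66.5% ± 10.2 and 71.2% ± 4.53, SD, n = 4 each). The split by coding type differed more. A processed transcript of 2538 bases from the upstream start and a retained intron transcript of 3815 bases from the downstream start are annotated as coding for no protein. Together they held 25.4%, 23.3%, 19.8% and 16.6% of the gene's counts with PM2.5 and 31.7%, 31.7%, 28.9% and 32.6% with PBS, with every PM2.5 library below every PBS library. Their summed level was 0.764 ± 0.123 against 1.25 ± 0.0910 CPM, while the protein-coding transcripts were at 2.84 ± 0.219 and 2.75 ± 0.119 CPM (SD, n = 4 each) and overlapped.

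This split was chosen after its values were seen. In an edgeR fit of all 20114 transcripts that passed the same filter, 0% were called, though 10.3% had an unadjusted p under 0.05. The processed Runx1 transcript was at -0.85 (SE 0.268, adjusted p = 0.381) and the retained intron transcript at -0.60 (SE 0.315, adjusted p = 0.547), both below PBS in every PM2.5 library, as were 5.99% of all transcripts. The main coding transcript of Runx1, with 53.0% of the counts, was at -0.10 (SE 0.169, adjusted p = 0.875). Counts of transcripts that share exons are estimates, so their split is less certain than the gene's total. The main Cebpd transcript in the same fit was at 1.86 (SE 0.52, adjusted p = 0.343), above PBS in every PM2.5 library, as were 2.58% of all transcripts. The Cebpa transcript of 2161 bases was at 2.63 (SE 1.208, adjusted p = 0.503) and that of 2626 bases at -1.01 (SE 0.932, adjusted p = 0.739), with both overlapping.

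**Figure D3:**
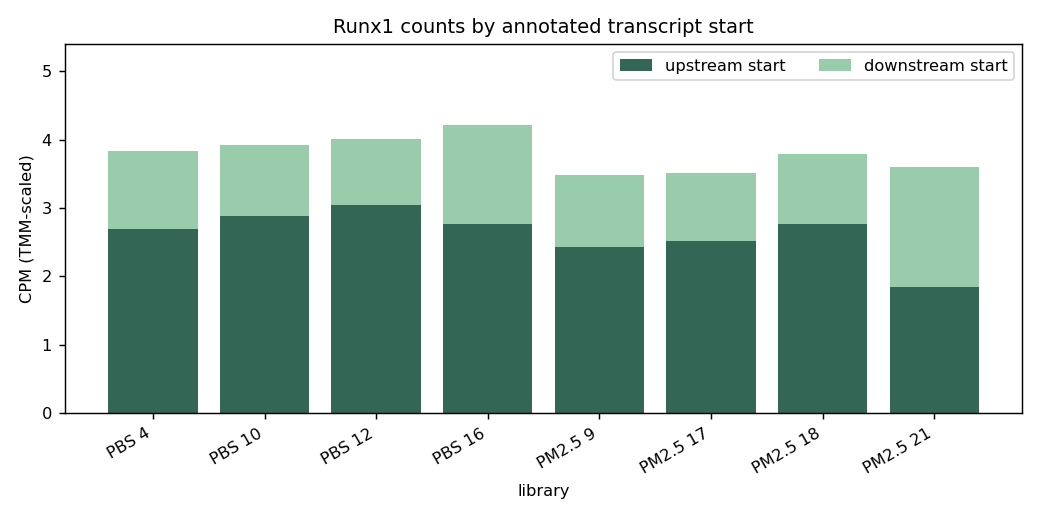
Runx1 level (CPM, TMM-scaled) in each library, stacked by transcripts from the upstream and the downstream annotated start. Upstream transcripts make up 65.4% to 75.7% in PBS libraries and 69.8% to 73.1% in PM2.5 replicates 9, 17 and 18, with 51.4% in PM2.5 replicate 21.

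The receptors and signalling genes upstream of these factors were measured as a group of 13, all tested, of which 2 were higher, none lower and 11 did not pass. Their median was 0.08 beside 0.04 over all genes. Socs3, the feedback inhibitor that STAT3 induces, was at 8.05, 6.56, 4.44 and 5.38 CPM with PM2.5 and 1.36, 2.27, 3.29 and 2.95 CPM with PBS. Every PM2.5 library was above every PBS library, as for 3.01% of all genes. The difference was 1.31 on the log2 scale (SE 0.237, adjusted p = 0.0117, or 0.0714 without PBS replicate 10). Csf2rb, the shared chain of the GM-CSF, IL-3 and IL-5 receptors, was at 4.07, 3.81, 2.68 and 3.06 CPM with PM2.5 and 1.78, 1.85, 1.59 and 2.32 CPM with PBS, also without overlap. Its log2 fold change was 0.85 (SE 0.175, adjusted p = 0.021), and it did not pass when 9 or 17 of the PM2.5 group or 4 or 10 of the PBS group was left out (adjusted p = 0.0621 to 0.114). Csf2rb has a near-identical neighbour, Csf2rb2, so its counts carry some uncertainty. Stat3 itself was at 0.08 (SE 0.149, adjusted p = 0.816). Without PM2.5 replicates 17 and 18 neither Socs3 (adjusted p = 0.0641) nor Csf2rb (adjusted p = 0.13) passed, and without 9 and 21, as many libraries, neither did (0.0542 and 0.0872). Under library totals Csf2rb was at 0.29 (adjusted p = 0.554) and Socs3 at 0.86 (adjusted p = 0.101).

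Of 16 granulocyte genes known to be under C/EBP control, 9 were tested and 5 were higher, Mmp8, S100a8, Lcn2, Mmp9 and Cxcr2, at 2.04, 1.19, 1.47, 1.19 and 0.94. None was lower and all 9 had a log2 fold change above 0, with a median of 0.95 beside 0.04 over all genes. Over all genes tested 0.463% were called higher and 45.7% had a log2 fold change below 0. The list was chosen with earlier results of these data known. The summed level was 115 to 143 CPM with PM2.5 and 75.1 to 108 CPM with PBS. Most of it was Lyz2, at a mean of 93.4 of 132 CPM with PM2.5 and 71.3 of 89.6 CPM with PBS. Lyz2 did not pass (0.39, adjusted p = 0.332). The list shares S100a8, S100a9, Mmp9, Cxcr2, Csf3r and Cd177 with the neutrophil markers. Of the 9 tested, this leaves only Mmp8, Lcn2 and Lyz2 outside the marker list, so the 2 lists are not separate readings. Mmp8, the neutrophil collagenase, stayed past the threshold in 8 of 8 fits without single libraries. S100a8, Lcn2 and Mmp9 each did in 3 and Cxcr2 in 2, all failing when 9 or 17 of the PM2.5 group or 4, 10 or 12 of the PBS group was left out, and Cxcr2 also when 18 was. With PM2.5 replicates 17 and 18 both left out, Mmp8 was at 2.16 (adjusted p = 0.016) and the other 4 did not pass (adjusted p = 0.155 to 0.307). Without 9 and 21 instead, Lcn2 (adjusted p = 0.0534) and Mmp9 (0.0713) did not pass and the other 3 did. Under library totals Mmp8 was at 1.53 (adjusted p = 0.0211) and the other 4, at 0.36 to 0.92, did not pass (adjusted p = 0.17 to 0.483). Elane, Mpo and Ctsg, granule genes of marrow precursors, were at 0 counts in all libraries, while Prtn3, another such gene, had up to 11 counts and was not tested.

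Of 27 partners, relatives and opposing regulators of the 9 factors, 25 were tested and none passed with edgeR, with 13 log2 fold changes above 0, 12 below and a median of 0.02. The smallest p were those of Gata1, the erythroid and platelet factor that PU.1 opposes, at 0.55 (SE 0.168, adjusted p = 0.107), and Ets1, a lymphocyte ETS factor, at -0.45 (SE 0.176, adjusted p = 0.202). Gata1 changed direction under library totals (-0.06), where Ets1 passed (-1.03, adjusted p = 0.0276). DESeq2 put both past the threshold (adjusted p = 0.0455 for Gata1 and 0.0248 for Ets1), and neither with its filter off (0.0931 and 0.0502). Cbfb, the partner of RUNX1, was at 0.26 (SE 0.159, adjusted p = 0.397).

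**Figure D4:**
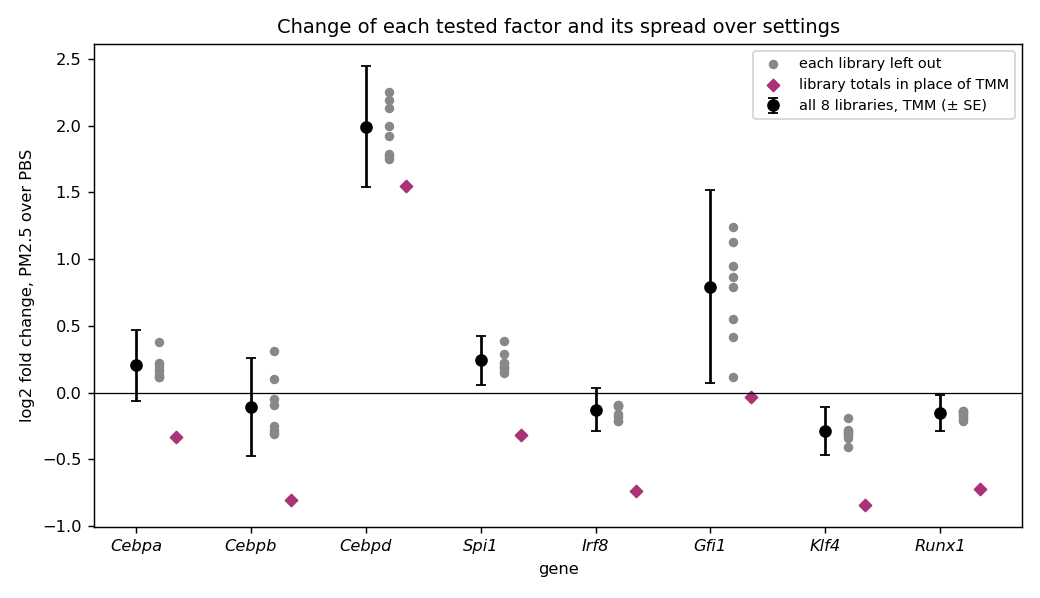
Log2 fold change (PM2.5 over PBS) of each of the 8 tested factors: black points are all 8 libraries with TMM scaling (bar ± SE), grey points leave out each library in turn, and diamonds use library totals in place of TMM. Cebpd stays above 0 in all of these (1.75 to 2.25 without single libraries, 1.55 with library totals), Irf8, Klf4 and Runx1 stay below 0, and Cebpa, Cebpb, Spi1 and Gfi1 fall on both sides.

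Compared per length on the authors' FPKM scale, summed over transcripts and averaged over 8 libraries, the levels fell in the order Spi1 at 2.52, Irf8 at 1.58, Runx1 at 1.17, Klf4 at 0.578, Cebpb at 0.545, Cebpa at 0.228, Cebpd at 0.144, Gfi1 at 0.0675 and Cebpe at 0.0213 FPKM. With PBS, Spi1 (2.66 ± 0.939, SD, n = 4) and Irf8 (1.93 ± 0.494) lay within each other's spread. With PM2.5 they were at 2.38 ± 0.675 and 1.22 ± 0.203, and Spi1 was above Irf8 in every library of both groups. The place of Spi1 rests on its short transcript: that of 544 bases gave 0.68 to 2.10 FPKM per library, and the main one 0.38 to 1.32. By CPM per kilobase of the main transcript Irf8 came first. Cebpd held its place in neither group: it averaged 0.260 FPKM with PM2.5, above Cebpa at 0.215, and 0.0275 with PBS, level with Cebpe and below Gfi1 at 0.0675, and 1 PM2.5 library gave 0.57 FPKM from the short transcript. Klf4 (0.762 ± 0.206 with PBS) and Cebpb (0.695 ± 0.523) also lay within each other's spread. The FPKM of most members was lower with PM2.5, as was the median gene on that scale, at -0.28 on log2(FPKM + 1).

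The genes whose level followed each factor most closely over the 8 libraries were named by Pearson's r of log2 CPM, as a description that shares library and depth between points. For Cebpd these were Tubd1 (r = 0.964) and Tlr13 (r = 0.946), the latter a receptor for bacterial RNA that was itself higher with PM2.5 (0.65, SE 0.16, adjusted p = 0.0478). Tlr13 kept its call in 1 of 8 fits without single libraries, that without PM2.5 replicate 18, and it was at 0.80 (adjusted p = 0.126) without replicates 17 and 18, 0.44 (adjusted p = 0.209) without 9 and 21, and 0.11 (adjusted p = 0.82) under library totals. Spi1 was nearest to Cyp4f18 (0.966) and Rab9 (0.964), and Irf8 to Map3k1 (0.971) and Foxk1 (0.962). For Runx1 the nearest were Pold1 (0.980) and Fbxl18 (0.972), and for Klf4 Bcdin3d (0.975) and Jmjd8 (0.969), although the rank correlation of Klf4 with Jmjd8 was 0.619. Cebpa was nearest to Hdlbp (0.945) and Tmem230 (0.937), Cebpb to Hdac1 (0.950) and Cep164 (0.945), and Gfi1 to Zkscan3 (0.952) and Brms1 (0.949). With 8 libraries and 10361 genes to choose from, every tested member had neighbours of this size.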

How the data were processed

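Total RNA of 8 buffy coat samples was made into libraries that mark strand, as the labels describe. Reads were handled with HISAT2 2.0.1, cutadapt 1.9.1 and bcl2fastq 2.17.1.14 on GRCm38, per the submitters' processing notes. The counting tool is not given in the sources used here. The deposited table lists 118783 Ensembl transcripts with expected counts, deposited without normalization, and FPKM, scaled by the authors by length and library, per the file headers.

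For each of 35944 genes of GENCODE M21, counts were summed over its transcripts (116710 matched by identifier). The 2073 unmatched held 0.0266% to 0.0532% of each library. Rounded sums entered a two-sided quasi-likelihood test (edgeR 4.0.16, R 4.3.3) with TMM scaling, after filterByExpr (minimum count 10, total 15). Benjamini-Hochberg adjustment covered 10361 genes, at a threshold of 0.05. The model held the group alone. The SE is the log2 fold change over the square root of F. Intervals use the 95% t quantile of the residual degrees of freedom. The procedure was tested on simulated data, with changes placed only in genes averaging above 1 CPM. Cebpa, Cebpb, Cebpd and Gfi1 lie below that level, so the simulation does not cover them. FPKM was tested with limma 3.58.1 where at least 1 in 4 libraries, and DESeq2 1.42.0 was an alternative. Other alternatives changed scaling, filter, pseudocount or libraries. DESeq2 without its filter, the main Cebpd transcript alone and the transcript fit were added after seeing the data. The shares over Ccr2 and over the B cell and natural killer cell sums were not planned either.

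Members and lists were chosen with earlier results of these data known. Named genes are the members, list members past the threshold (up to 6, or otherwise the 2 with the smallest p) and the 2 genes most like each member (log2 CPM, prior count 2). Defining markers without counts could be named too. Stat3, Cbfb, Spidr, Tmem189, Gm20388, Camk2a, Il1r2, F13a1, Fn1, Kit, Prtn3, Lyz2, S100a9, Csf3r and Cd177 were named outside this rule after their values were seen. RefSeq promoter windows on GRCm38.p6 matched 6 of 9 members.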

Additional observations from a re-analysis of the deposited data

Results flagged for a closer look

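In groups of 4 libraries a sample was listed when its gap to the nearest other sample, divided by the group's range, was above 0.829 (Dixon's test at 95%). Of 16 groups, 2 held such a sample, both for Cebpa, and chance gives about 1 in 20. Cebpa in PM2.5 replicate 17 was 0.293 CPM, where the next lowest PM2.5 library was at 0.548 CPM (ratio 0.881). Cebpa in PBS replicate 16 was 0.382 CPM, where the next lowest PBS library was at 0.446 CPM (ratio 0.848). These values rest on 16 and 42 counts.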

How the results depend on the processing

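No paired analysis was possible because the groups share no replicate number. The number of genes past the threshold, 166 (48 higher, 118 lower), was 483 (8, 475) with library totals, 226 (10, 216) with haemoglobin removed and library totals together, 624 (313, 311) with no filter, 220 (28, 192) at 1 CPM or more, 364 (95, 269) with DESeq2, 266 (76, 190) with DESeq2 without its filter, 0 (0, 0) with limma on log2(FPKM + 1) or log2(FPKM + 0.1), 8 (5, 3) without PM2.5 replicates 17 and 18, and 189 (108, 81) without 9 and 21. Without single libraries it was 31 to 192 in all, 6 to 66 higher and 25 to 134 lower. The count of members past it, 1, was 0 with library totals, with or without haemoglobin, without PM2.5 replicates 17 and 18, without 9 and 21, and 0 to 1 without single libraries. The cause was not tested.

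Cebpd kept its direction in 16 of 16 settings (1.23 to 2.44) and its call in 6, and with haemoglobin removed and library totals it was 1.71 (adjusted p = 0.0775). Irf8, Klf4 and Runx1 kept their direction and stayed short of the threshold in every setting that tested them, but their size moved: -0.74, -0.84 and -0.72 with library totals, and -0.90 for Runx1 with limma at pseudocount 0.1. Directions turned for Cebpa (-0.33 with library totals, -0.11 with haemoglobin removed as well, -0.05 without PM2.5 replicates 9 and 21), Cebpb (0.10 without PM2.5 replicate 9, 0.31 without PBS replicate 4; -0.31 to 0.31 without single libraries), Spi1 (-0.32 with library totals, -0.10 with haemoglobin removed as well, and -0.10 and -0.13 with limma at pseudocounts 1 and 0.1), Gfi1 (-0.03 with library totals, -1.80 without PM2.5 replicates 17 and 18), Gata1 (-0.06 with library totals, -0.03 with limma at both pseudocounts) and Ddit3 (0.07 without PM2.5 replicate 18; -0.37 to 0.07 without single libraries). By CPM per kilobase Irf8 ranked 1 and Spi1 2, the reverse of FPKM. Limma and the filter at 1 CPM left out the 4 C/EBP genes and Gfi1, and limma also Klf4. At the depth of these libraries Cebpd (125 counts), Gfi1 (75) and Cebpe (13) rest on few counts, and for them even large differences may go undetected.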
